A study of Mus musculus with 16 samples.

Results

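The 10 genes described here are targets and transcription factors of the SRF and YAP pathways that act on the actin cytoskeleton: Flna, Zyx, Vcl, Actn1, Cnn1, Tagln, Cyr61, Ctgf, Srf and Tead1. They were taken by gene symbol, and all 10 were present among the 17097 genes measured in each library. RNA came from the striatum of male wild-type C57BL/6J mice aged 63 days, collected 2 h after they were injected with vehicle or with 1 mg/kg of clozapine N-oxide (CNO). CNO is a synthetic ligand of designer receptors, and the series title names activation of Gi signalling in astrocytes as the subject. In every mouse, ribosome-associated RNA of astrocytes was pulled down through a hemagglutinin tag (immunoprecipitate, IP), and RNA of the cleared lysate served as input. This gave 4 groups of 4 libraries: vehicle IP, CNO IP, vehicle input and CNO input, with replicates numbered 2 to 5. The titles hold 8 mouse codes, each with 1 IP and 1 input library, whereas the series text mentions 4 mice. Should the replicates not be different animals, the p-values speak only of the spread among these samples. Neither the receptor nor the carrier of the tag is in the labels, and a group given CNO without a receptor was not analysed here, so an effect of the receptor and an effect of CNO by itself cannot be told apart.

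As background, serum response factor (Srf) binds the CArG box and drives genes of actin and its partners, Srf itself among them. Its cofactors of the Mkl family are held by monomeric actin and released when actin polymerises. Yap1 and its relative Wwtr1 (TAZ) reach DNA through TEAD factors such as Tead1, and the kinases of the Hippo pathway keep them out of the nucleus. Cyr61 and Ctgf are widely used as readouts of YAP activity. In the brain, astrocytes carry high levels of Yap1, and smooth muscle of vessels is a strong source of the contractile genes Cnn1 and Tagln.

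Read totals were 52.1 to 61.5 M (M, mega) in IP and 32.8 to 40.3 M in input. Levels below are in CPM, the reads of a gene per 1 M reads of the normalized library, and an SD is over n = 4 libraries. Of the astrocyte markers, 12 of 12 were higher in vehicle IP than in vehicle input, where 37.7% of the genes tested were higher and 37.2% lower. The summed CPM of these 12 markers was 31390 to 38050 in vehicle IP and 3413 to 3723 in vehicle input. Markers of medium spiny neurons (10 of 10), endothelium (10 of 10) and microglia (10 of 10) were lower in IP, while those of ependyma (8 of 8) and oligodendrocytes (5 of 8) were higher. In tissue of mixed cells, fewer cells of a type and less RNA per cell cannot be told apart.

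Stretches before the tabulated starts of members are shown because 7 of the 10 genes rose together after CNO in IP. The RefSeq promoter table (GRCm38.p6) held 7 of the 10 genes. Tagln, Ctgf and Tead1 were not matched. The 250 bases before each start were searched on both strands for the CArG box of SRF, GGAATG (the core of TEAD sites), TGANTCA (AP-1) and TGACGTCA (the cAMP response element). Of 32851 promoters, 1.47% held a CArG box, 12.6% GGAATG, 6.75% TGANTCA and 1.55% TGACGTCA. None of these motifs overlapped another in the members. Each stretch reads 5′ to 3′ on the strand of its gene, with the motif in capitals. Positions count back from the start, with -1 the base before it.
Srf, first CArG box, chr17:46556215-46556264, minus strand: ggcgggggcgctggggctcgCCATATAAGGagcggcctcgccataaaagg
Srf, second CArG box, chr17:46556195-46556244, minus strand: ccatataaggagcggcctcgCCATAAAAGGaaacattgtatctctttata
Vcl, CArG box, chr14:20929151-20929200, plus strand: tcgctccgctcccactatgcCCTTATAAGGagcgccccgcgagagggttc
Vcl, GGAATG, chr14:20929235-20929280, plus strand: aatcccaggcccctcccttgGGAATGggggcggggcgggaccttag
Cyr61, GGAATG on the opposite strand, chr3:145650063-145650108, minus strand: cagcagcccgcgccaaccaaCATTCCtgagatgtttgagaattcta
Flna, GGAATG on the opposite strand, chrX:74246655-74246700, minus strand: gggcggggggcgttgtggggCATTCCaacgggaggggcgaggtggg

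The Srf window held 2 CArG boxes, at -82 to -73 and at -62 to -53. In the Vcl window, the CArG box lay at -227 to -218 and GGAATG at -143 to -138. GGAATG lay at -103 to -98 for Cyr61 and at -146 to -141 for Flna. The TGANTCA match of Zyx, whose stretch is not shown, was at -121 to -115. The tabulated starts of Flna and Zyx lie inside the annotated genes, and so do these matches of both. Actn1 and Cnn1 held none of the 4 motifs, which says only that these letters are not in this window. A match is a description of the letters and not of binding. Of the genes with a CArG box here, Srf rose after CNO in IP and Vcl did not pass the test.

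After CNO, 7 of the 10 genes rose in IP, 0 fell and 3 (Vcl, Actn1 and Ctgf) did not pass the test. Among the 7, Cnn1 passed the filter on low reads only through its CNO libraries. For comparison, of 15602 genes tested with limma in IP, 10.2% rose and 7.08% fell at an adjusted p under 0.05. The median log2 fold change of the 10 genes was 0.89, beside -0.01 over all genes tested. Every CNO IP library lay above every vehicle IP library for the 7 that rose and for Actn1. This uses the same values as the calls, and the share over all genes was not worked out, so it is a description only. Ranked by log2 fold change among the 15602 genes, Cnn1 was at position 12, Cyr61 at 43, Flna at 92, Zyx at 192 and Tagln at 284, and Srf and Tead1 were at 1136 and 1153.

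**Figure D1:**
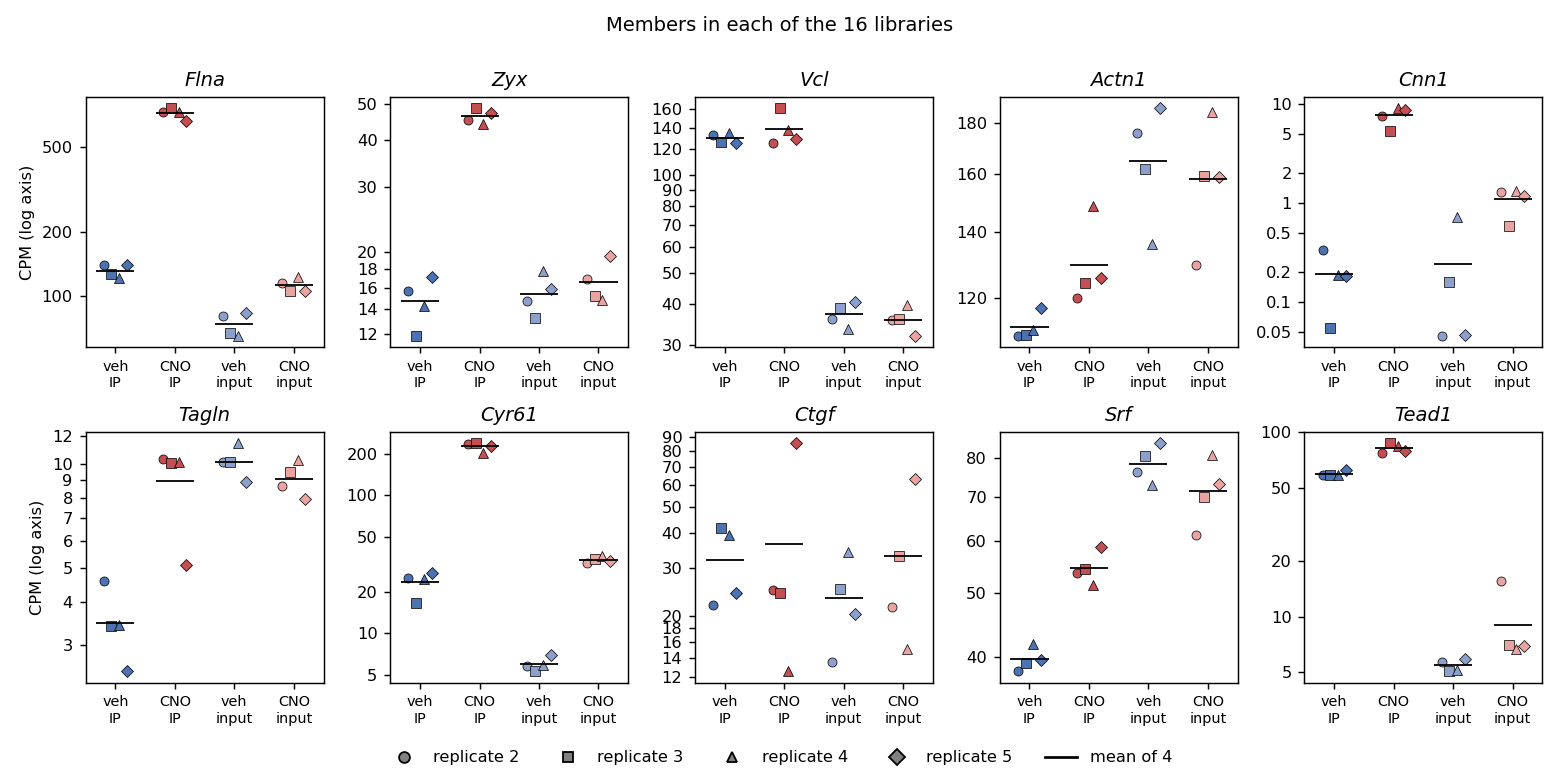
CPM of the 10 genes (log axis, which differs between panels) in each of the 16 libraries, by group, with the replicate number as the symbol and the mean of 4 as a line. In IP the CNO libraries of Flna, Zyx, Cnn1, Cyr61, Srf and Tead1 stand clear of the vehicle libraries, those of Vcl and Ctgf overlap them, and CNO replicate 5 is the lowest CNO IP library for Tagln.

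Of the 4 genes of adhesion and crosslinking proteins, Flna and Zyx rose several fold in IP, and Vcl and Actn1 did not pass the test. Positions are those of GENCODE on GRCm38, where all 10 members are protein coding. Flna, Cnn1 and Cyr61 overlap no other gene, and Actn1, Ctgf, Srf and Tead1 overlap only unnamed gene models and, for Srf and Tead1, a microRNA. Flna encodes filamin A, which crosslinks actin filaments into networks and ties them to integrins (chromosome X, 74223461 to 74249820, minus strand, 9400 exon bases). Its level was 139, 126, 120.5 and 140 CPM in vehicle IP replicates 2 to 5 and 734, 763, 731 and 664 CPM in CNO IP. The lowest CNO library was thus far above the highest vehicle library, and the mean went from 131 ± 9.49 to 723 ± 42.1 CPM (SD, n = 4). The log2 fold change was 2.46 (SE 0.07, 95% interval 2.31 to 2.61, adjusted p = 4.12e-08), a fold of 5.51. By mean CPM, Flna moved from rank 1879 to rank 163 of the 17097 genes. In input it was 80.1, 66.8, 64.7 and 82.6 CPM after vehicle and 114, 105, 122 and 105 CPM after CNO, again without overlap.

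Zyx encodes zyxin, a LIM protein of focal adhesions and stress fibres (chromosome 6, 42349630 to 42360213, plus strand). Vehicle IP libraries held 15.7, 11.8, 14.2 and 17.1 CPM and CNO IP libraries 45.3, 48.9, 44.3 and 47.4 CPM. The groups did not overlap, and the log2 fold change was 1.67 (SE 0.10, adjusted p = 6.28e-06), a fold of 3.19. Zyx overlaps Epha1 on the opposite strand, and the strand setting of the counting is not given in the sources used here. Reads of both genes could therefore be mixed. Epha1 itself was counted at a mean of 0.291 CPM in vehicle IP and 0.152 CPM in CNO IP. In input Zyx was 14.7, 13.2, 17.7 and 15.9 CPM after vehicle and 16.8, 15.2, 14.8 and 19.5 CPM after CNO, and these ranges overlapped.

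Vcl encodes vinculin, which joins talin to actin at adhesions (chromosome 14, 20929398 to 21033676, plus strand). Its CPM was 133, 126, 135 and 126 in vehicle IP and 126, 161, 138 and 129 in CNO IP. These ranges overlapped, with a log2 fold change of 0.08 (95% interval -0.09 to 0.25, adjusted p = 0.559). Vcl overlaps Ap3m1 on the opposite strand, whose mean in IP went from 55.7 to 46.5 CPM (log2 fold change -0.26, adjusted p = 0.00661). Actn1 encodes alpha-actinin 1, which bundles actin filaments (chromosome 12, 80167547 to 80260371, minus strand). It was 110.0, 110.2, 111 and 117 CPM in vehicle IP and 120.1, 124, 148 and 126 CPM in CNO IP. The groups did not overlap, but the log2 fold change of 0.20 (95% interval 0.05 to 0.35) missed the threshold with an adjusted p of 0.0686. In input, Vcl was 33.5 to 40.5 CPM after vehicle and 31.9 to 39.6 CPM after CNO, and Actn1 136 to 186 and 130 to 185 CPM.

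Both members of the calponin family rose in IP, and Cnn1 had the largest fold and the lowest level of the 10 genes. Cnn1 encodes calponin 1, an actin-binding protein of smooth muscle (chromosome 9, 22099216 to 22109630, plus strand). In vehicle IP it was near the floor of detection, at 0.338, 0.0546, 0.188 and 0.184 CPM, 41 reads over the 4 libraries. In CNO IP it was 7.56, 5.39, 9.16 and 8.68 CPM, 1562 reads. The ratio of pooled CPM was 40.3, with an exact 95% interval of 29.6 to 56.4 that covers counting error only. The log2 fold change was 5.51 (SE 0.48, adjusted p = 6.84e-05). Cnn1 passed the filter on low reads through its CNO libraries, since vehicle IP replicates 2 to 5 held 18, 3, 10 and 10 reads. Its call and rank in IP are therefore a description and not separate support. In input Cnn1 was 0.0453, 0.161, 0.727 and 0.0465 CPM after vehicle, 42 reads in all, and 1.28, 0.580, 1.33 and 1.19 CPM after CNO, 169 reads. Vehicle replicate 4 overlapped the CNO range there, and the log2 fold change of 2.97 (95% interval 1.15 to 4.79) had an adjusted p of 0.198. Without that library, the highest of the vehicle inputs, it was 3.79. Cnn1 then passed the filter on low reads through the 4 CNO libraries alone. The vehicle inputs left held 2, 7 and 2 reads, so no p-value is given.

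Tagln encodes transgelin (SM22), another calponin-related protein of smooth muscle (chromosome 9, 45929619 to 45936058, minus strand). It was 4.58, 3.42, 3.42 and 2.52 CPM in vehicle IP and 10.4, 10.1, 10.1 and 5.11 CPM in CNO IP. The groups did not overlap, and replicate 5 was the lowest library of each. The log2 fold change was 1.33 (SE 0.26, adjusted p = 0.00841), a fold of 2.51, and it was 1.58 without CNO IP replicate 5. In input Tagln stood at 10.1, 10.1, 11.5 and 8.84 CPM after vehicle and 8.63, 9.50, 10.3 and 7.91 CPM after CNO, with overlap. Tagln overlaps Pcsk7 on the opposite strand, whose mean in IP was 24.6 CPM after vehicle and 28.4 CPM after CNO (log2 fold change 0.21, adjusted p = 0.0114).

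Because Cnn1 and Tagln are smooth muscle genes, the markers of mural cells (smooth muscle and pericytes) are given beside them. Of 14 such markers tested, 0 rose and 2 fell in IP after CNO (0 to 1 rose and 1 to 4 fell over 14 settings of the fit): Pdgfrb, a receptor of pericytes (log2 fold change -1.31, adjusted p = 0.000713), and Lmod1, an actin nucleator of smooth muscle (-1.53, adjusted p = 0.0475). The Lmod1 call was lost in 6 other settings, with an adjusted p of up to 0.137. In CNO mice, Lmod1 had too few reads to be tested for IP against input. Its fall in IP is therefore a description and not separate support. Both had more RNA in IP than in input in vehicle mice (log2 ratio 1.49, adjusted p = 1.04e-05 for Pdgfrb, and 1.2, adjusted p = 0.0155 for Lmod1), where 4 of the 15 markers were higher in IP and 7 lower. The summed CPM of the 15 markers was 255 to 266 in vehicle IP, 185 to 213 in CNO IP, 168 to 193 in vehicle input and 144 to 161 in CNO input, and 0 of them were without reads. Notch3, a receptor with a log2 ratio of IP to input of 3.06 (adjusted p = 1.75e-08), and Pdgfrb made up 99.6 and 63.3 CPM of the mean sum in vehicle IP, so this sum is no measure of mural RNA alone. Acta2, the actin of smooth muscle, was 5.28, 5.78, 5.34 and 1.23 CPM in vehicle IP and 4.14, 3.26, 2.40 and 1.38 CPM in CNO IP. As for Tagln, replicate 5 was the lowest library of each group. The log2 fold change of Acta2 was -0.54 (SE 0.54, adjusted p = 0.595). Myh11, the myosin of smooth muscle, ranged from 0.545 to 1.75 CPM in vehicle IP and from 0.490 to 1.09 CPM in CNO IP. The part of mural cells in the values of Cnn1 and Tagln was not tested.

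Of the 2 secreted matricellular proteins, Cyr61 rose in IP and input, and Ctgf passed the test in neither. Cyr61, also called Ccn1, encodes a ligand of integrins (chromosome 3, 145646976 to 145649981, minus strand). Vehicle IP held 25.2, 16.6, 24.7 and 27.3 CPM and CNO IP 238, 238, 204 and 227 CPM. CNO gave a log2 fold change of 3.29 (SE 0.14, adjusted p = 1.05e-06), a fold of 9.81, and Cyr61 moved from rank 7681 to rank 974 by mean CPM. Input showed the same order without overlap: 5.78, 5.27, 5.86 and 6.91 CPM after vehicle and 32.03, 34.8, 36.01 and 33.4 CPM after CNO. There the log2 fold change was 2.52 (SE 0.09, adjusted p = 3.62e-07), a fold of 5.74.

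Ctgf, also called Ccn2, encodes a protein of the same family (chromosome 10, 24595442 to 24598683, plus strand). Its CPM was 21.9, 42.0, 39.6 and 24.2 in vehicle IP and 24.8, 24.2, 12.5 and 85.2 in CNO IP. The highest and the lowest of the 8 libraries were both CNO libraries. The log2 fold change was -0.11 (SE 0.53, 95% interval -1.32 to 1.09, adjusted p = 0.929), an interval that leaves room for a fall or a rise of more than 1 on the log2 scale. Leaving out CNO IP replicate 5 gave -0.64, and leaving out CNO IP replicate 4 gave 0.28. In input the level was 13.5, 25.1, 34.3 and 20.2 CPM after vehicle and 21.5, 33.2, 15.1 and 63.1 CPM after CNO. The mouse with 85.2 CPM in IP was the one with 63.1 CPM in input, and the mouse with 12.5 CPM in IP was the one with 15.1 CPM in input.

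Ctgf is a known marker of layer 6b, a layer of the cortex and not of the striatum. Cplx3, Nxph4 and Moxd1, other markers of that layer, were looked at after the values of Ctgf had been seen. Cplx3, a complexin of synapses, was 6.10, 13, 9.21 and 6.02 CPM in vehicle IP and 6.32, 7.04, 2.94 and 23.8 CPM in CNO IP. In input it was 4.58, 9.54, 11.04 and 5.40 CPM after vehicle and 6.52, 10.99, 3.99 and 17.4 CPM after CNO. CNO mouse 5 was the highest and CNO mouse 4 the lowest for Cplx3 in both kinds of library, the same mice as for Ctgf. Nxph4 was 2.36, 1.71, 1.16 and 5.52 CPM in CNO IP and Moxd1 15.2, 15.7, 15.01 and 22.6 CPM, again highest in mouse 5. The part of tissue from that layer in the values of Ctgf was not tested.

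**Figure D2:**
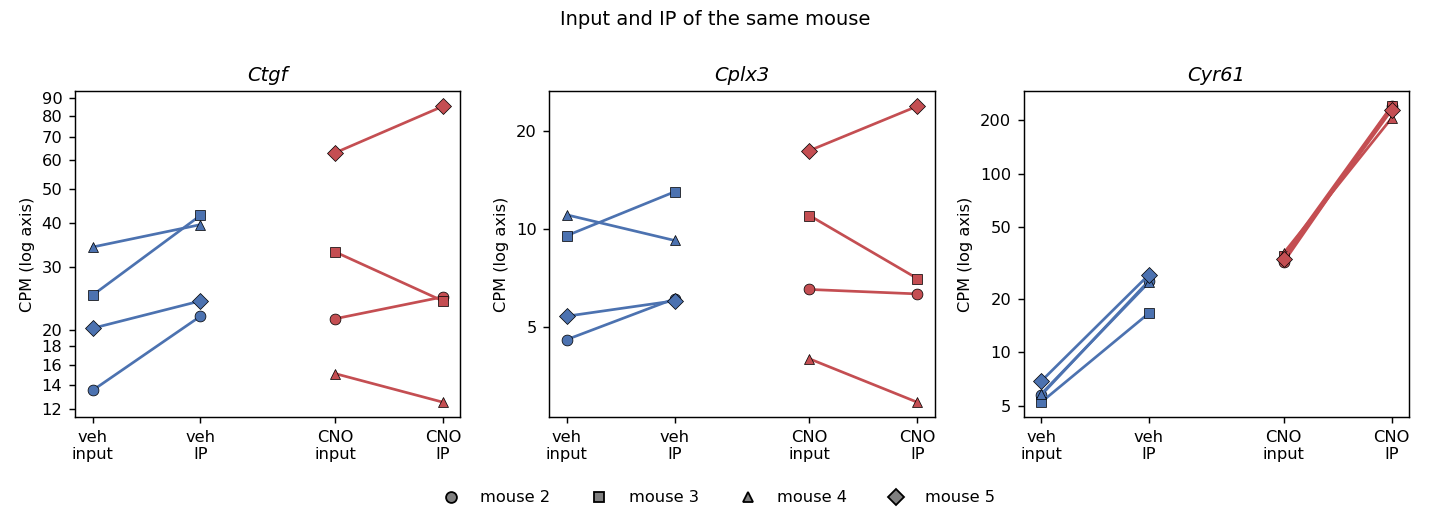
CPM (log axis) of Ctgf, Cplx3 and Cyr61 in the input and IP libraries of the same mouse, joined by a line, for 4 vehicle mice (blue) and 4 CNO mice (red). CNO mouse 5 is the highest and CNO mouse 4 the lowest of the CNO mice for Ctgf and Cplx3 in both libraries, whereas the CNO mice lie close together for Cyr61, between 204 and 238 CPM in IP.

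Both transcription factors rose in IP, by folds of 1.38 and 1.37. Srf (chromosome 17, 46548329 to 46556175, minus strand) was 38.0, 39.1, 41.8 and 39.5 CPM in vehicle IP and 53.6, 54.4, 51.4 and 58.7 CPM in CNO IP. The groups did not overlap, with a log2 fold change of 0.46 (SE 0.05, adjusted p = 0.00032). Input Srf was higher than IP Srf, at 76.2, 80.6, 72.8 and 84.3 CPM after vehicle and 61.3, 69.8, 81.0 and 73.2 CPM after CNO. The input groups overlapped.

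Tead1, a TEAD factor through which YAP and TAZ bind DNA (chromosome 7, 112679318 to 112906807, plus strand), was 58.8, 58.5, 58.8 and 62.7 CPM in vehicle IP. In CNO IP it was 76.6, 86.9, 84.6 and 78.8 CPM, without overlap. That is a log2 fold change of 0.45 (SE 0.05, adjusted p = 0.000315). When all 16 libraries shared 1 estimate of the spread, the adjusted p was 0.146. Input Tead1 was 5.71, 5.07, 5.16 and 5.93 CPM after vehicle and 15.6, 7.02, 6.68 and 6.92 CPM after CNO. CNO input replicate 2 was far above its group, and this library also had the highest sum of the 12 astrocyte markers, 4356 CPM against 3426 to 3554 CPM in the other CNO inputs. The part of that difference in the Tead1 value was not tested. The log2 fold change of Tead1 in input was 0.63 (adjusted p = 0.445) with CNO input replicate 2 and 0.33 (adjusted p = 0.302) without it. The input groups did not overlap, at 6.68 to 15.6 CPM after CNO and 5.07 to 5.93 CPM after vehicle.

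Levels of different genes can be compared only per length, here as CPM per kb of merged exon. This length takes in the exons of every annotated transcript of a gene, so the order also depends on the annotation. In vehicle IP the order was Actn1 (20.3), Vcl (15.9), Flna (14.0), Srf (13.7), Cyr61 (11.6), Ctgf (11.2), Tead1 (4.40), Zyx (2.73), Tagln (1.75) and Cnn1 (0.0699). Neighbours from Flna to Ctgf in this order overlapped in the range of their libraries, as did Zyx and Tagln. In CNO IP, Cyr61 led with 112 ± 7.85 CPM per kb (SD, n = 4), followed by Flna with 76.9 ± 4.48, both clear of Actn1 at 23.4 ± 2.30. Next came Srf (18.9), Vcl (16.9), Ctgf (12.8), Zyx (8.62), Tead1 (6.02), Tagln (4.48) and Cnn1 (2.81). Neighbours overlapped from Srf to Zyx and for Tagln with Cnn1. In both inputs Actn1 (29.8 after vehicle, 28.6 after CNO) and Srf (27.1 and 24.7) led, and their ranges overlapped. In vehicle input Ctgf (8.14), Flna (7.83), Tagln (5.10), Vcl (4.55), Cyr61 (2.95), Zyx (2.85), Tead1 (0.403) and Cnn1 (0.0894) followed, with overlap of Ctgf with Flna, of Tagln with Vcl and of Cyr61 with Zyx. In CNO input Cyr61 (16.9) came next, before Flna (11.9), Ctgf (11.6), Tagln (4.56), Vcl (4.37), Zyx (3.08), Tead1 (0.668) and Cnn1 (0.401). There Flna overlapped with Ctgf and Tagln with Vcl.

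In input, 2 of the 10 genes rose after CNO and 0 fell, where 0.815% of the 15825 genes tested rose and 0.183% fell. They were Cyr61 and Flna (log2 fold change 0.61, SE 0.09, adjusted p = 0.00884). The median log2 fold change of the 10 genes was 0.25, beside -0.02 over all genes tested. Zyx (0.11, adjusted p = 0.832), Vcl (-0.06, 0.89), Actn1 (-0.06, 0.932), Tagln (-0.16, 0.707), Srf (-0.14, 0.639) and Ctgf (0.38, 0.878) did not pass the test. For Ctgf the 95% interval ran from -0.73 to 1.5. Vascular markers moved in the same libraries. The summed CPM of 10 endothelial markers was 188 to 198 in vehicle input and 140.1 to 171 in CNO input, without overlap, as for the mural sum. Cldn5, a tight junction protein of endothelium (-0.63, adjusted p = 0.0347), Slco1a4, a transporter of endothelium (-0.53, 0.0295), and Pdgfrb (-0.52, 0.0164) fell in input, calls lost in 6 or 7 other settings with an adjusted p of up to 0.131. Their part in the input values of the members was not tested.

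Whether the CNO effect differed between IP and input was tested directly as an interaction. It passed for 5 of the 10 genes, each with the larger effect in IP, where 4.18% of the 16256 genes tested passed in that direction and 0.572% in the other. With the mouse as a block, 1240 genes passed in place of 773, and the same 5 members were called. The difference was 1.85 for Flna (SE 0.12, adjusted p = 4.67e-08), 1.56 for Zyx (SE 0.16, adjusted p = 9.44e-06), 1.49 for Tagln (SE 0.30, adjusted p = 0.00601), 0.77 for Cyr61 (SE 0.17, adjusted p = 0.0148) and 0.60 for Srf (SE 0.10, adjusted p = 0.00167). Zyx, Tagln and Srf were called in IP and not in input, and the difference itself passed for each. For Cnn1 the difference of 2.54 (95% interval 0.40 to 4.68, adjusted p = 0.222) did not pass, with few reads behind the vehicle levels. For Tead1 it was -0.18 (adjusted p = 0.91), and 0.12 without CNO input replicate 2. Vcl (0.14, adjusted p = 0.716), Actn1 (0.27, 0.458) and Ctgf (-0.50, 0.906) did not pass.

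**Figure D3:**
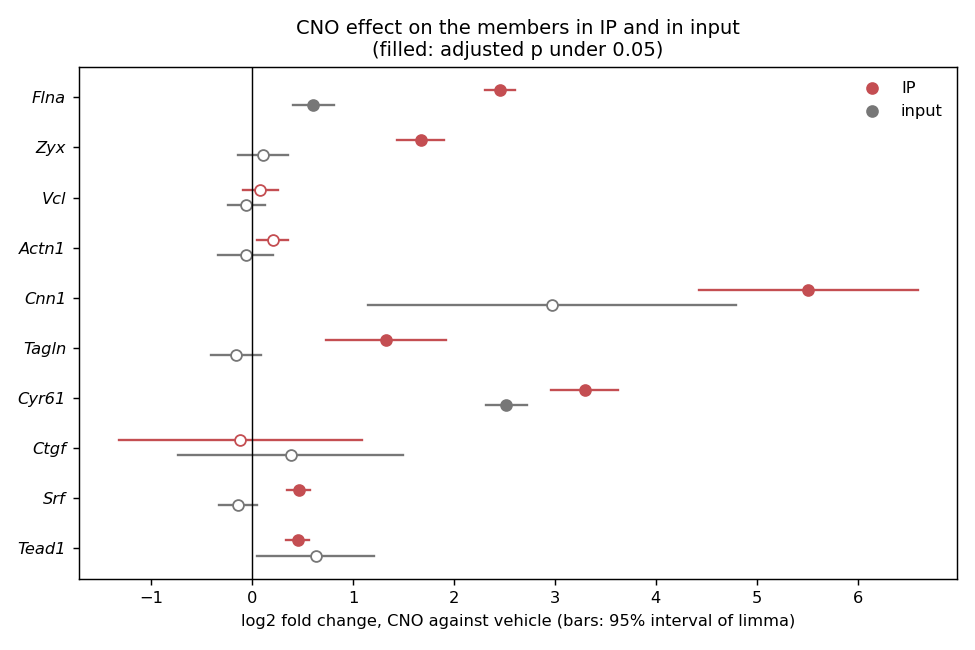
Log2 fold change of CNO against vehicle for the 10 genes in IP (red) and input (grey), with the 95% interval of limma over 4 against 4 libraries and filled symbols for an adjusted p under 0.05. The IP values of Flna, Zyx, Tagln, Cyr61 and Srf lie to the right of the input values with intervals that do not meet. The intervals of Ctgf and of Cnn1 in input are the widest.

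The capture itself separated the genes in mice given vehicle. Of 9 genes tested, 4 were higher in IP than in input, 3 were lower and 2 did not pass. Cnn1 had too few reads to be tested. The shares over all 15872 genes tested were 37.7% and 37.2%, and the median log2 ratio was 0.48 for the 9 genes and 0.01 for all genes. Tead1 had a log2 ratio of 3.45 (SE 0.07, adjusted p = 9.23e-10), at rank 11 of the 15872 genes. Cyr61 (1.96, adjusted p = 2.61e-06), Vcl (1.81, 1.35e-08) and Flna (0.84, 2.16e-05) were also higher in IP. Tagln (-1.56, adjusted p = 2.34e-05), Srf (-0.99, 2.46e-07) and Actn1 (-0.55, 0.000357) were lower in IP. Zyx was at -0.07 (adjusted p = 0.628). Ctgf was at 0.48 (adjusted p = 0.212), and with the mouse as a block in the paired fit its adjusted p was 0.0023.

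In mice given CNO, 6 of the 10 genes were higher in IP than in input, 2 were lower and 2 did not pass, where 40.0% of the 15819 genes tested were higher and 35.0% lower. These ratios share their libraries with the CNO comparisons and are given beside the vehicle ratios as values only. Flna had a log2 ratio of 2.69, Zyx of 1.49, Vcl of 1.95, Cnn1 of 2.85, Cyr61 of 2.73 and Tead1 of 3.27, with adjusted p-values from 6.08e-10 (Cyr61) to 6.23e-06 (Cnn1). Without CNO input replicate 2 the ratio of Tead1 was 3.57. Srf was lower in IP (-0.38, adjusted p = 0.00164). Actn1 was lower too (-0.28, adjusted p = 0.0344), but this call was lost without any 1 of CNO IP replicates 2, 3 and 5 and CNO input replicates 3, 4 and 5, with an adjusted p of up to 0.0914. Tagln (-0.08, adjusted p = 0.765) and Ctgf (-0.02, 0.977) did not pass.

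Lists of other genes of the pathways were read in the same fits, again beside 10.2% higher and 7.08% lower over all genes in IP. Of 31 further SRF targets of the cytoskeleton, 11 rose and 1 fell in IP after CNO, with a median log2 fold change of 0.04. Tpm4, a tropomyosin that stabilises actin filaments, rose from 25.9 ± 4.19 to 226 ± 9.88 CPM (SD, n = 4; log2 fold change 3.14, adjusted p = 1.87e-07). Cnn2, a non-muscle calponin (1.56, adjusted p = 6.84e-05), Tagln2, a transgelin (1.06, 0.0292), and Tpm3, another tropomyosin (0.92, 0.000306), followed. The Tagln2 call was lost in 6 other settings, with an adjusted p of up to 0.0784. Actb, the beta-actin gene, rose from 1863 ± 15.2 to 2266 ± 66.0 CPM (0.28, adjusted p = 0.00305). The gene that fell was Lmod1, also on the mural list and with few reads in CNO mice. Most of this list, 19 of 31, did not pass, among them Acta2.

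Of 30 partners of focal adhesions and actin crosslinking, 7 rose and 2 fell, with a median of 0.11. Flnc, the muscle filamin, was 43.8, 22.7, 39.5 and 81.0 CPM in vehicle IP and 213, 275, 279 and 231 CPM in CNO IP (log2 fold change 2.55, SE 0.33, adjusted p = 0.000947). Vehicle IP replicate 5 was the highest and replicate 3 the lowest of its group. The same held for the summed markers of oligodendrocytes (14070 and 5874 CPM), microglia (65.1 and 28.5 CPM), and fibroblasts and meninges (330 and 283 CPM). The other marker sums did not have both extremes in these replicates. Of the 10 markers of fibroblasts and meninges, 0 were higher and 6 lower in vehicle IP than in vehicle input (median log2 ratio -2.16). Their summed CPM was nevertheless 283 to 330 in vehicle IP and 207 to 396 in vehicle input. This sum is thus no measure of fibroblasts and meninges alone. The part of any of these cells in the result was not tested. Vasp, an actin elongation factor that binds zyxin, went from 13.2 ± 1.17 to 48.1 ± 0.357 CPM (1.86, adjusted p = 2.22e-07). Tns1, a tensin (0.60, adjusted p = 0.00232), and Trip6, a LIM protein of the zyxin family (0.56, 0.00086), rose as well. Tns3, another tensin (-0.38, adjusted p = 0.00288), and Lasp1, an actin-binding LIM protein (-0.26, 0.0081), fell. Actn4, a relative of Actn1 chosen after its value was seen, was at 0.20 (adjusted p = 0.307).

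Of 27 further YAP and TAZ targets, 6 rose and 1 fell, with a median of 0.05. Thbs1, the secreted matricellular protein thrombospondin 1, went from 2.20, 1.58, 1.64 and 1.18 CPM in vehicle IP to 65.9, 49.1, 57.2 and 76.3 CPM in CNO IP (log2 fold change 5.25, adjusted p = 3.14e-07). Wisp1, of the family of Cyr61 and Ctgf (2.98, adjusted p = 1.48e-05), and Gadd45a, a stress-response gene (1.82, 0.00178), followed. Fgf1, a growth factor, fell (-0.17, adjusted p = 0.0119), a call lost in 2 other settings with an adjusted p of up to 0.232. On this list 20 of 27 genes did not pass, as Ctgf did not.

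Of 22 Hippo kinases, their partners, YAP, TAZ and TEAD genes, 5 rose and 2 fell, with a median of 0.06. Rassf1, a scaffold of the Hippo kinases, went from 11.4 ± 0.768 to 47.5 ± 3.22 CPM (log2 fold change 2.06, adjusted p = 1.38e-07). Wwtr1 (TAZ) went from 129 ± 8.46 to 253 ± 14.4 CPM (0.97, adjusted p = 7.01e-06), Amotl1, an angiomotin that binds YAP, rose (0.71, 1.61e-05), and so did Yap1 (0.30, 0.00208). Vgll4, a competitor of YAP for TEAD factors (-0.58, adjusted p = 0.00101), and Wwc1 (KIBRA), an activator of the Hippo kinases (-0.43, 0.000206), fell. Of 6 SRF cofactors tested, Mkl1 alone rose (0.27, adjusted p = 0.0244), and this call was lost in 5 other settings, with an adjusted p of up to 0.0783.

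**Figure D4:**
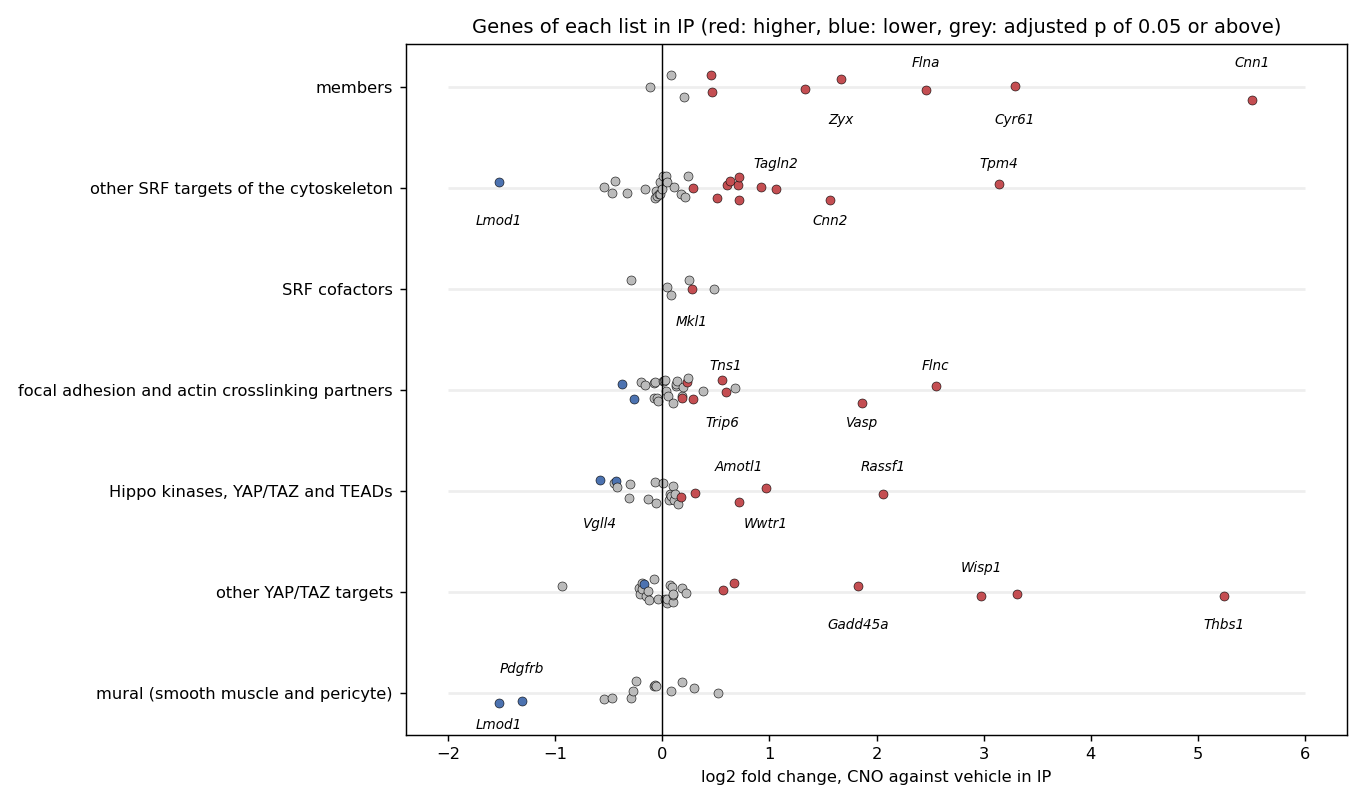
Log2 fold change of CNO against vehicle in IP for each tested gene of the 10 members, of 5 further gene lists and of the mural markers, in red where higher and blue where lower at an adjusted p under 0.05. Tpm4, Flnc and Thbs1 lie far to the right of most genes of their lists, which are near 0, while the called mural markers, Pdgfrb and Lmod1, lie to the left.

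In input after CNO, beside 0.815% higher over all genes, 1 SRF target rose (Tpm4, log2 fold change 0.94, adjusted p = 0.000808), as did 2 genes of the Hippo list (Rassf1 at 0.64 and Wwtr1 at 0.57), 2 YAP targets (Thbs1 at 1.71 and F3 at 0.55) and 1 adhesion partner (Flnc at 2.09). The Flnc call in input was lost in 7 other settings, with an adjusted p of up to 0.193. Beside 4.18% over all genes, the interaction passed with the larger effect in IP for 9 of 31 SRF targets (Tpm4 at 2.20), 3 of 27 YAP targets (Thbs1 at 3.54), 3 of 22 Hippo genes (Rassf1 at 1.42) and 1 of 30 adhesion partners (Vasp at 1.70), the last 1 to 5 over 21 settings of the fit. It passed in the other direction for Wwc1 (-0.35). In vehicle mice, beside 37.7% higher and 37.2% lower over all genes, 16 of the 22 Hippo genes were higher in IP than in input and 0 were lower, among them Yap1 (log2 ratio 1.83) and Wwtr1 (2.24). By contrast, 5 of 7 SRF cofactors were lower in IP, among them Mkl1 (-0.39, adjusted p = 0.000676).

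For each member, the genes with the most similar pattern over the 16 libraries were found among 14135 genes with a mean of at least 1 CPM, by the root mean square difference of centred log2 CPM. Ptbp1 (0.167) and Mvk (0.216) were nearest to Flna, whose own root mean square over the libraries was 1.26. Ptbp1 had means of 46.6 CPM in vehicle IP and 293 CPM in CNO IP. Opa3 (0.174) and Mat2a (0.183) were nearest to Zyx, and Adamts1 (0.270) and Bag3 (0.304) to Cyr61. Adamts1, a secreted protease, went from a mean of 59.6 to 492 CPM in IP. Serpine2 (0.0926) and Add3 (0.105) were nearest to Vcl, and Mbnl2 (0.0924) and Pcsk7 (0.0928) to Actn1. Srf lay nearest to Zfp131 (0.0784), and Tead1 to Creb3l1 (0.243) and Nos1 (0.260). Tagln lay nearest to Mir22hg (0.303) and Actr3b (0.342), and Ctgf to Cplx3 (0.192) and Myh3 (0.289). No gene was close to Cnn1, for which Sphk1 (0.915) and Tinf2 (0.977) came first.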

How the data were processed

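Per the labels' protocols, RNeasy Micro Plus columns were used for the RNA, and 100 ng per sample went into paired-end libraries of the Nugen Ovation RNA-Seq System V2. Reads had been handled with bcl2fastq 2.17, STAR, HTSeq, limma and the mm10 build, per the submitters' processing notes. Strand setting and annotation: not given in the sources used here. The deposited values are log2 CPM made by the authors, 17098 gene lines per library, of which an identical line was dropped. They gave back whole reads within 0.01 for 100% of values, with a prior count of 0.25. CPM in the text is these reads over the normalized library size, which was 0.88 to 0.932 times the total in IP and 1.08 to 1.14 times in input.

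Tests were run with limma 3.58.1 (R 4.3.3; lmFit, eBayes with trend and robust) on the deposited log2 values of the groups compared, or of all 16 libraries for the interaction. Genes needed, in at least 4 libraries, a CPM equal to 10 reads in the median library. P-values were adjusted by Benjamini-Hochberg over all tested genes, and 0.05 was the threshold. The code was tested on simulated data. Each mouse gave 1 IP and 1 input library, and these deviated together (r 0.209 to 0.583 in 8 mice), so the mouse was a paired block as an alternative. The other alternatives were upper quartile scaling, no filter, limma-voom on recovered reads, a prior count of 2, the replicate number as a block, all 16 libraries in the fit, and leaving out each library. Gene positions and exon lengths come from GENCODE on GRCm38, figures from matplotlib 3.10.9.

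The members and lists were chosen with earlier results of these data known. Named beside the 10 members were up to 4 called genes per list and direction with the largest change in IP, and Acta2, Actb, Yap1, Wwtr1, Mkl1 and Thbs1. A few genes that this rule names, and a list, are not reported here.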

Additional observations from a re-analysis of the deposited data

Results flagged for a closer look

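In groups of 4 libraries, the gap of a library to the nearest one was divided by the group's range, both in log2 CPM. A library was taken as far from the others when this share exceeded Dixon's 95% critical value. Of 40 groups tested, 4 met this, and chance gives about 1 in 20. Tead1 in CNO input had a gap of 0.942 of the range, with replicate 2 at 15.6 CPM. Tead1 in vehicle IP had a gap of 0.912, with replicate 5 at 62.7 CPM above 58.5 to 58.8 CPM. Tagln in CNO IP had a gap of 0.958, with replicate 5 low at 5.11 CPM. Cnn1 in CNO input had a gap of 0.866, with replicate 3 low at 0.580 CPM.

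The effect of CNO differed between IP and input by the interaction test of limma for 5 genes. The difference in log2 fold change was 1.85 for Flna, 1.56 for Zyx, 1.49 for Tagln, 0.77 for Cyr61 and 0.60 for Srf, each larger in IP. For these 5 genes, all 4 CNO IP libraries lay above all 4 vehicle IP libraries. The same values entered the test that picked the genes, so this adds no separate support. What the difference between the kinds of library reflects was not tested.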

How the results depend on the processing

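Of 737 values of the 10 genes under the alternatives, 726 kept their direction and their side of the threshold, 8 lost the call, 3 gained it and 0 changed direction with a call. In IP, 2703 genes were called, and 1781 to 2958 with 1 library left out (1781 without vehicle IP replicate 2), with 7 members each time. In input, 158 genes were called, 298 with all 16 libraries in the fit, and 93 to 182 with 1 library left out: 103 without CNO input replicate 3, 93 without CNO input replicate 5, 94 without vehicle input replicate 2 and 100 without vehicle input replicate 4. With all 16 libraries, the input call of Cnn1 was gained (adjusted p = 0.0457), for a gene that passed the filter through its CNO libraries. With the replicate number as a replicate block, 102 genes and 1 member were called in input, since Flna had an adjusted p of 0.0558. Numbers did not pair CNO with vehicle samples (r from -0.19 to 0.218 in IP and from -0.373 to 0.001 in input for the same number). With the mouse as a replicate block, 1240 genes had an interaction in place of 773. The cause of these shifts was not tested. Under upper quartile scaling, the median over all genes moved by -0.06 in IP, -0.16 for IP against input after vehicle and -0.22 after CNO. It made the share of higher calls 38.8% in place of 59.2% in IP, 39.8% in place of 53.3% for IP against input after CNO, and 72.7% in place of 88.0% for the interaction. Under it, the number of members called was the same in all 5 comparisons. The number of libraries and reads limits what can be said of Cnn1 after vehicle and of Ctgf, whose interval is wide.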
